A study of Mus musculus with 6 samples.

Results

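Nfkb1 is described here through the transcription starts mapped across its locus by cap analysis of gene expression (CAGE). The method reads RNA from its cap, and each listed peak is taken here as a start site, which was not tested. The locus was taken as the peaks from 135247619 to 135359842 on mouse chromosome 3 (build mm9), 57 of the 158966 peaks that each library lists. The gene and its internal start were chosen by the measured difference between the groups, so the differences below are a description and carry no test. The libraries were made from Ba/F3, a pro-B line of BALB/c mice that grows without its usual cytokine once an active kinase is introduced. In 1 group (n = 3) the cells express FLT3-ITD, a FLT3 receptor tyrosine kinase with an internal tandem duplication, and in the other (n = 3) FLT3-ITD with the activation-loop substitution D835Y, called the double mutant. Both groups thus carry the duplication, and parental cells are not analysed here. The labels do not say whether a group is 1 clone or whether its libraries came from separate cultures, so the spread between libraries may be technical. A second label numbers the substitution D835, D836 and D837 in the 3 double-mutant samples, and the titles, which give D835Y for all 3, were used.

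Nfkb1 codes for p105, a precursor from which the proteasome makes p50, a DNA-binding subunit of the NF-κB transcription factors. The N-terminal part holds the Rel homology domain that binds DNA, and the C-terminal part holds ankyrin repeats with which unprocessed p105 retains Rel proteins in the cytoplasm, as the IκB inhibitors do. In B-lineage cells p50 pairs with RelA and c-Rel and takes part in survival and in the response to antigen and microbial signals. A start inside a gene gives RNA that lacks the exons upstream of it.

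The groups used the locus in opposite ways. In FLT3-ITD cells most starts on the Nfkb1 strand lay at a single peak deep inside the gene, at 84.5 ± 3.3 CPM (tags in each 1000000 of the library; SD, n = 3), while the whole cluster at the 5′ end of the gene held 15.2 ± 1.5 CPM. In the double mutant the internal peak held 2.60 ± 2.06 CPM and the 5′ cluster 46.7 ± 14.2 CPM. The main cluster was thus 3.08-fold higher and the internal start 32.6-fold lower in the double mutant by group means. The main-cluster fold was 2.54 when double-mutant replicate 2 was left out and 3.37 when replicate 3 was. The fold of the internal start was 23.2 when double-mutant replicate 2 was left out and 53.3 when replicate 1 was.

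Libraries held 5884258 to 13977941 tags, so that 1 tag was worth 0.0715 to 0.170 CPM and a count of 0 in 1 library allows up to 0.215 to 0.510 CPM, the level of 3 tags. Such limits, and the intervals below, cover counting error only. The minus strand is the strand of Nfkb1. On it, the main cluster was taken as the 10 peaks that begin within 1000 bp of the gene's main 5′ end, 36 peaks lay further inside the gene, and 3 lay upstream. The remaining 8 peaks were on the plus strand. Of the 57, 33 had 0 tags in every library, and 6 reached 1 CPM in at least 3 libraries and entered the fit across all peaks. Those 6 are the internal start, 1 minor peak beside it and 4 peaks of the main cluster, which held 96.3% of that cluster's tags. Peak positions are on mm9 as deposited, and whether they count from 0 or 1 is not stated. The files pair no peak with a gene, and exons were not placed on this build. In the RefSeq gene table, which follows GRCm38, Nfkb1 lies between Manba and Slc39a8, and the long non-coding RNA Gm46827 is listed inside it on the opposite strand.

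**Figure D1:**
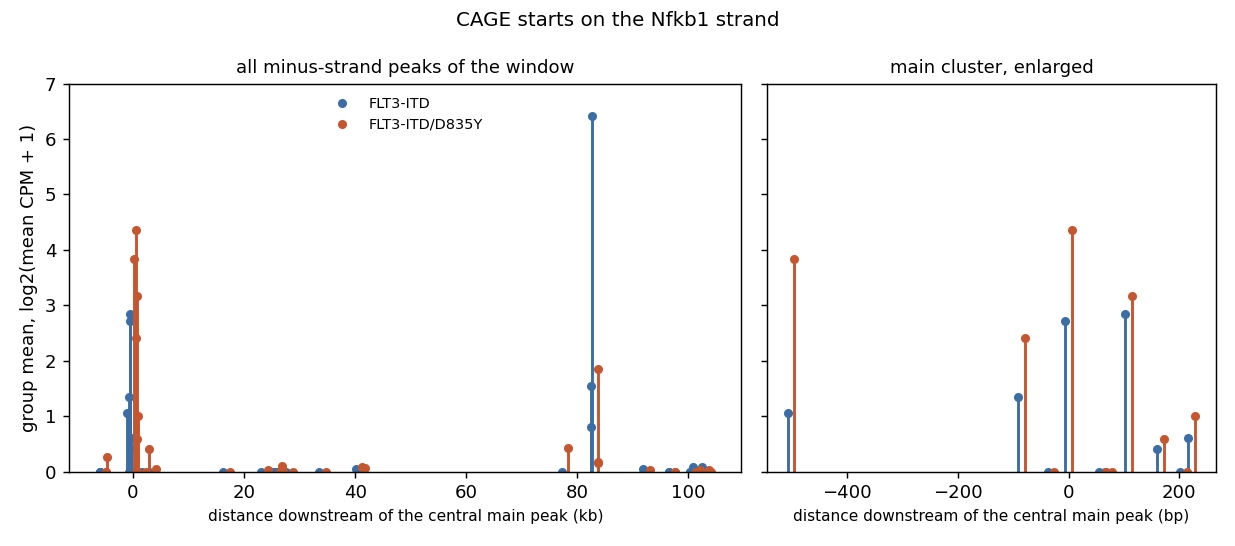
Group mean levels of the minus-strand peaks, as log2 of the mean CPM + 1, against distance downstream of the central main peak, for all 49 peaks of that strand (left, in kb) and for the 10 of the main cluster (right, in bp). The groups are drawn side by side with a small shift. The tallest FLT3-ITD line is the internal start, 83189 bp downstream, and the tallest double-mutant line is the central main peak.

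The internal start, chr3:135271185-135271254 on the minus strand, lay 83189 bp downstream of the most active peak of the main cluster, measured between their 5′ edges. Its levels were 88.3, 82.3 and 83.0 CPM in FLT3-ITD replicates 1, 2 and 3, and 4.61, 0.501 and 2.67 CPM in double-mutant replicates 1, 2 and 3. Every FLT3-ITD library stood far above every double-mutant library, and replicate 2 was the lowest of the latter. The difference was -4.77 (SE 0.51, limma) on the log2(CPM + 1) scale, double mutant minus FLT3-ITD. By level it ranked 1595 of the 19162 tested peaks in FLT3-ITD cells and 13306 in the double mutant. The peak was broad, with end minus start of 69 bp against a median of 34 bp over the tested peaks.

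The low double-mutant values were above 0 in all 3 libraries. They rested on 55 tags in replicate 1 (exact 95% Poisson interval 3.48 to 6.01 CPM), 7 tags in replicate 2 (0.201 to 1.03 CPM) and 27 tags in replicate 3 (1.76 to 3.88 CPM). As shares of the FLT3-ITD mean, the levels were 5.46%, 0.592% and 3.16%. CAGE of bulk RNA cannot tell fewer cells using a start from fewer starts in each cell.

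A pair of minor peaks lay just upstream of the internal start. The peak chr3:135271365-135271376, 122 bp upstream, held 1.56, 1.87 and 2.37 CPM with FLT3-ITD alone and 0.168, 0 and 0.198 CPM with D835Y added. The peak chr3:135271325-135271343, 89 bp upstream, held 0.780, 0.850 and 0.614 CPM with FLT3-ITD alone and 0.336, 0 and 0 CPM with D835Y added, and was too low to enter the fit. Both were higher in every FLT3-ITD library than in any double-mutant library, as at the internal start itself. At the peak 89 bp upstream, however, tags were only 8, 5 and 7 with FLT3-ITD alone and 4, 0 and 0 with D835Y. Its exact Poisson interval in double-mutant replicate 1, at the confidence level used above, was 0.0914 to 0.859 CPM. That interval covers every FLT3-ITD value of the peak, so the separation of that library is within counting error. With 0 tags, the exact upper limits in double-mutant replicates 2 and 3 were 0.264 and 0.365 CPM, below every FLT3-ITD value. The counting error of the FLT3-ITD tags is left out of this. In FLT3-ITD cells the pair made up 3.08% ± 0.46 of the tags at these 3 peaks (SD, n = 3).

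Of the 4 active peaks of the main cluster, the one furthest upstream differed most. This 5′-most peak, chr3:135354903-135354945, lay 502 bp upstream of the central one. It held 0.585, 1.70 and 0.965 CPM with FLT3-ITD alone and 12.8, 13.1 and 14.1 CPM with D835Y added. The double-mutant libraries were close to one another and all far above the FLT3-ITD libraries. The means differed 12.3-fold, and the difference was 2.82 (SE 0.20, limma) as log2(CPM + 1), a scale on which differences between low values shrink.

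The central main peak, chr3:135354384-135354443, held 5.46, 5.44 and 5.70 CPM with FLT3-ITD alone and 15.6, 29.1 and 14.04 CPM with D835Y added. All double-mutant libraries were higher, and replicate 2 stood above its fellows. The means differed 3.54-fold (log2(CPM + 1) difference 1.58, SE 0.23, limma).

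The upstream main peak, chr3:135354476-135354528, 85 bp upstream of the central one, held 1.56, 1.36 and 1.67 CPM with FLT3-ITD alone and 2.77, 7.08 and 3.16 CPM with D835Y added. Again the groups did not overlap and replicate 2 of the double mutant was the highest (log2(CPM + 1) difference 0.99, SE 0.26, limma).

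The downstream main peak, chr3:135354289-135354334, 109 bp downstream of the central one, held 5.27, 5.95 and 7.37 CPM with FLT3-ITD alone and 6.46, 12.2 and 5.14 CPM with D835Y added. Here the groups overlapped, and replicate 2 alone of the double mutant stood above the FLT3-ITD range. The difference was 0.24 (SE 0.25, limma) on the log2(CPM + 1) scale and -0.077 without that library, so it had no settled direction. Of the main peaks too low to enter the fit, chr3:135354103-135354220 held the most tags, 16 in FLT3-ITD and 37 in double-mutant libraries. Its levels were 0.683, 0.170 and 0.702 CPM with FLT3-ITD alone and 1.01, 1.22 and 0.791 CPM with D835Y added.

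**Figure D2:**
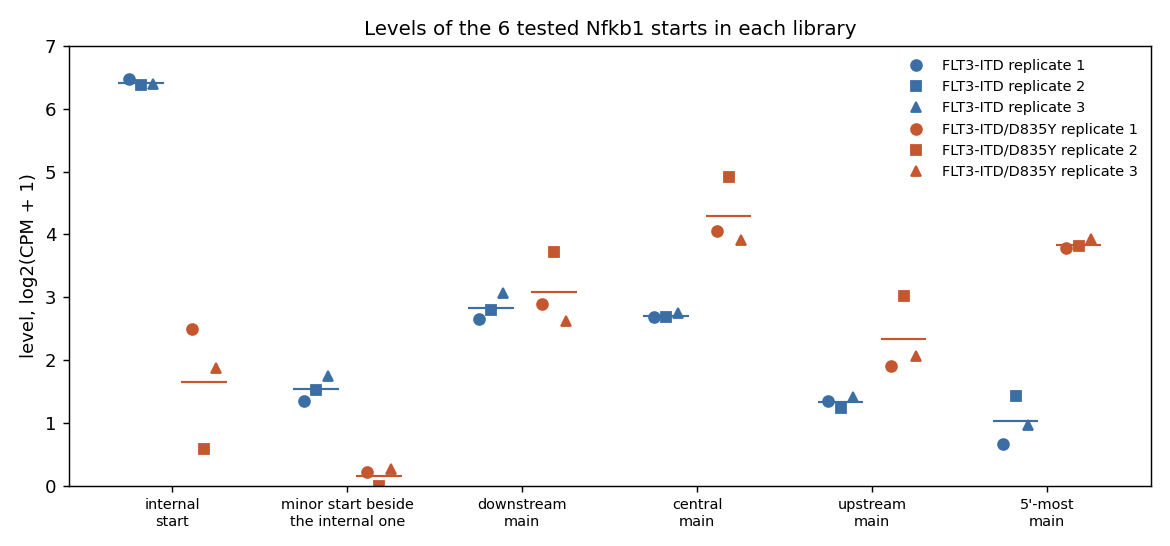
Levels of the 6 tested Nfkb1 starts in each of the 6 libraries, as log2(CPM + 1). Symbols are libraries and horizontal lines are group means of the log values. Groups are far apart at the internal start and at the 5′-most main peak, and overlap at the downstream main peak.

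In the fit across all 19162 tested peaks, 5 of these 6 passed (limma, Benjamini-Hochberg adjusted p under 0.05), 3 higher and 2 lower in the double mutant, the downstream main peak being the exception. Of all tested peaks 24.4% passed, 14.1% (2695) higher and 10.4% (1985) lower. That split depended on the scaling: with TMM scaling 2451 were higher and 2456 lower. Without double-mutant replicate 3, it was 1292 higher and 1442 lower with DESeq2, 1902 and 1698 with edgeR, and 2248 and 1397 with limma. These fits also differ in scaling, so the effect of the test alone cannot be told apart. At 5 of the 6 every library of 1 group lay above every library of the other, against 41.8% of all tested peaks. Because the gene was chosen on this comparison, and because a low peak enters the fit through the group in which it is high, nothing is read from these counts. The upstream main peak no longer passed without FLT3-ITD replicate 2, and its call held in the other alternatives run. The median difference of the 6 was 0.62 and that of all tested peaks 0.05.

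Within the main cluster the balance of starts also differed. The downstream main peak made up 40.6% ± 3.1 of the cluster's tags in FLT3-ITD cells and 16.5% ± 2.9 with D835Y (SD over n = 3 libraries). The 5′-most peak made up 7.12% ± 3.76 and 30.2% ± 8.6. In neither case did the libraries of the groups overlap. The central peak, at 36.6% ± 2.7 and 41.0% ± 4.6, and the upstream peak, at 10.1% ± 1.1 and 8.88% ± 2.13, did overlap between the groups.

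Replicate 2 of the double mutant departed from its fellows in the inner part of the cluster and not at its 5′-most peak. Without that peak, the other 9 peaks summed to 26.5, 50.01 and 23.6 CPM in double-mutant replicates 1, 2 and 3, against 13.3, 13.3 and 15.8 CPM in the FLT3-ITD libraries. At the 5′-most peak the same double-mutant libraries differed by little (12.8, 13.1 and 14.1 CPM). The share of the 5′-most peak was therefore lowest in replicate 2, at 20.7% (exact 95% binomial interval 18.1% to 23.6%), against 32.5% (28.3% to 36.9%) in replicate 1 and 37.4% (32.6% to 42.5%) in replicate 3. The library with the fewest internal tags was thus also the one with the most main-cluster tags. What sets it apart was not tested.

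**Figure D3:**
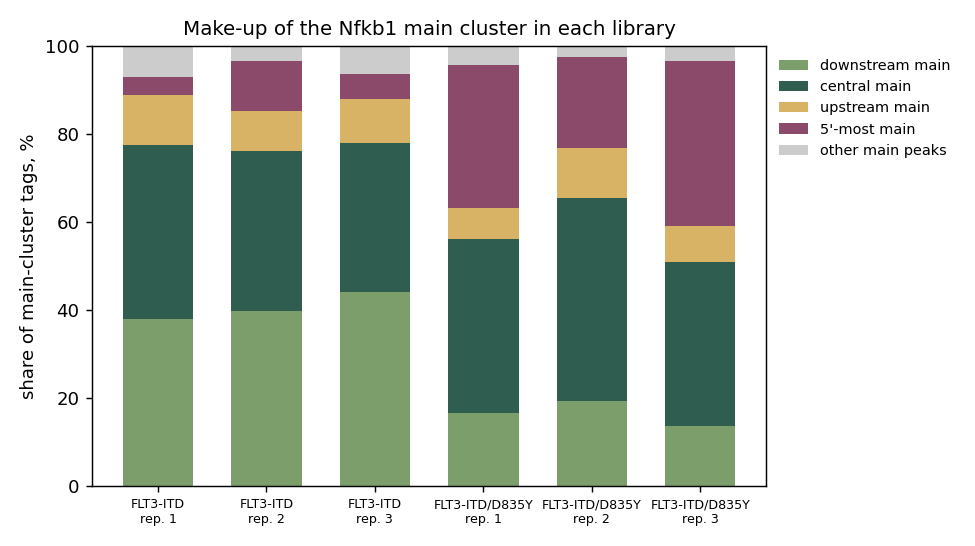
Share of the main-cluster tags, in percent, held by each active peak in each library, with the remaining main peaks in grey. The 5′-most peak takes 4.23% to 11.4% in the FLT3-ITD libraries and 20.7% to 37.4% in the double-mutant libraries.

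Main and internal starts were then set against each other library by library. The internal start held 6.38, 5.50 and 4.95 times the main cluster's level in FLT3-ITD replicates 1, 2 and 3. In the double mutant the main cluster held 8.51, 126 and 14.1 times the level of the internal start. As a share of internal plus main tags, the internal start made up 86.4% (exact 95% binomial interval 84.2% to 88.5%), 84.6% (81.4% to 87.5%) and 83.2% (80.9% to 85.3%) in FLT3-ITD replicates 1 to 3. The double-mutant libraries gave 10.5% (8.02% to 13.5%), 0.787% (0.317% to 1.62%) and 6.60% (4.40% to 9.46%). The group means were 84.8% ± 1.6 and 5.97% ± 4.90 (SD, n = 3 each). The second was 3.69% without double-mutant replicate 1 and 8.56% without replicate 2. The FLT3-ITD shares had intervals that overlapped one another, while the share of double-mutant replicate 2 had an interval apart from both others.

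**Figure D4:**
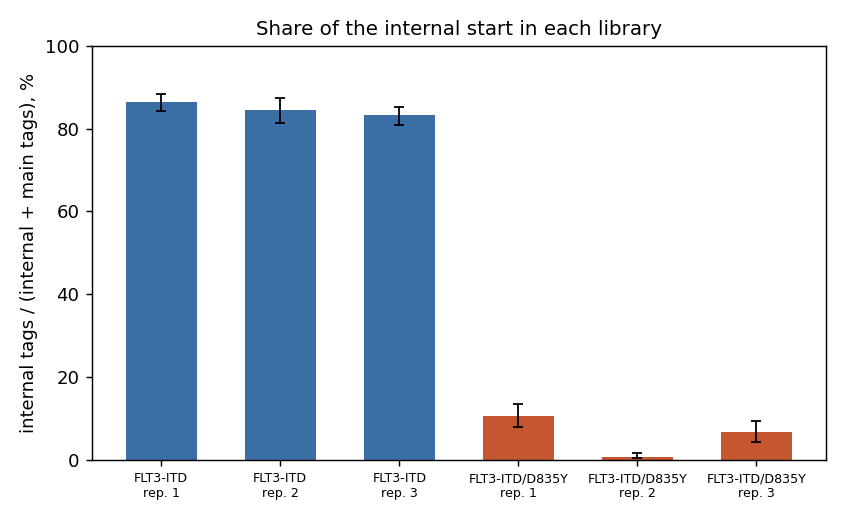
Tags of the internal start as a percentage of internal plus main-cluster tags in each library. Bars are single libraries and whiskers exact 95% binomial intervals. FLT3-ITD libraries lie between 83.2% and 86.4%, double-mutant libraries between 0.787% and 10.5%.

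Summed over all 49 minus-strand peaks, starts amounted to 104.7, 99.9 and 103.1 CPM with FLT3-ITD alone and 46.0, 64.9 and 41.4 CPM with D835Y added. The total on the Nfkb1 strand was thus 2.02-fold lower in the double mutant by group means although the 5′ cluster was higher, since the internal start held most of the total in FLT3-ITD cells.

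Outside these clusters the locus was close to silent. The other 33 minus-strand peaks inside the gene summed to 0.195, 0 and 0.351 CPM with FLT3-ITD alone and 1.26, 1.22 and 0.593 CPM with D835Y added. Among them were a pair seen in every double-mutant library and in no FLT3-ITD library. The peak chr3:135276641-135276645, 77798 bp downstream of the central main peak, had 7, 5 and 1 double-mutant tags. The peak chr3:135352219-135352232, 2211 bp downstream, had 4, 5 and 3. Their pooled double-mutant levels were 3.31 and 3.06 times the level of 3 tags over the FLT3-ITD group (0.109 CPM). Upstream of the cluster, chr3:135359779-135359792 had 4, 1 and 2 double-mutant tags and 0 FLT3-ITD tags, 1.78 times that level. These ratios leave out the counting error of the double-mutant tags, so they are not lower limits of a fold. These 3 peaks were picked for this pattern and lie near the floor of what the depth can show.

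On the plus strand, antisense to Nfkb1, the 8 peaks held 2 tags in all in the FLT3-ITD libraries and 15 in the double-mutant libraries. The plus-strand peak chr3:135352198-135352207, which lies beside that minus-strand peak at 2211 bp and points toward it, had 4, 2 and 2 double-mutant tags and 0 FLT3-ITD tags. Also on the plus strand, chr3:135352137-135352167 had 7 double-mutant tags and 1 FLT3-ITD tag. The closest plus-strand peak to the internal start, chr3:135270349-135270359, had 1 tag in all 6 libraries together. Antisense starts were therefore barely detectable at this depth in either group.

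Peaks next to the locus differed by less than the internal start. The nearest tested peak below the window, chr3:135148569-135148632 on the plus strand, held 64.1, 63.9 and 57.6 CPM with FLT3-ITD alone and 49.5, 52.4 and 42.3 CPM with D835Y added. The nearest above, chr3:135488612-135488628 on the plus strand, held 7.12, 7.65 and 6.58 CPM, and 6.21, 8.16 and 5.64 CPM. Of the 23 tested peaks within 1000000 bp on either side, 6 passed, all lower with D835Y (the same limma fit). That is 26.1%, close to the 24.4% of all tested peaks, and 3 of the 6 lie within 500 bp of one another on the plus strand. The log2 differences of the 23 were -0.79 to 0.41, with a median of -0.29. The internal start of Nfkb1 lies below that range, and its central, upstream and 5′-most main peaks lie above it.

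The peaks whose levels followed the internal start most closely over the 6 libraries lay on other chromosomes. Among 10246 peaks with a mean of at least 5 CPM outside the window, the highest Pearson r of log2(CPM + 1) were 0.9996 at chr4:145022324-145022347 (plus strand), 0.999 at chrX:45561743-45561868 (minus), 0.998 at chr13:98252702-98252714 (plus), 0.998 at chr16:23058399-23058424 (plus) and 0.997 at chr4:140330111-140330127 (minus). These values are a description over 6 points that fall into 2 groups, picked as the highest of many, and say nothing of shared control. In 4 of the 5 the double-mutant level was a small remnant of the FLT3-ITD mean, as at the internal start. The peak on chromosome 13 kept 6.25%, 0.495% and 3.19% of that mean in double-mutant replicates 1, 2 and 3, and the minus-strand peak on chromosome 4 kept 9.02%, 0.652% and 5.59%. The plus-strand peak on chromosome 4 kept 3.69%, 0.215% and 2.47%. On chromosome 16 the peak kept 10.6% and 7.29% in replicates 1 and 3 and had 0 tags in replicate 2. The peak on chromosome X kept 50.9%, 38.1% and 46.1%. In all 5, replicate 1 was the highest and replicate 2 the lowest of the double-mutant libraries, an order that the search for likeness favours.

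The main cluster's closest followers by the same measure were chr4:155186603-155186638 (plus strand, r = 0.997), chr4:153534744-153534805 (minus, r = 0.996), chr12:71926479-71926501 (plus, r = 0.996), chr1:58643084-58643162 (minus, r = 0.996) and chrX:18744363-18744370 (minus, r = 0.996). Their levels were higher in the double mutant, and replicate 2 was the highest library in each. At the peak on chromosome 12, for example, double-mutant replicates 1, 2 and 3 held 15.2, 24.8 and 16.1 CPM against 6.68 ± 0.39 CPM in FLT3-ITD cells (SD, n = 3). The peak on chromosome 1 differed little between the groups, at 13.3 ± 0.17 and 15.7 ± 0.64 CPM, so a high r does not mean an equal size of difference.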

How the data were processed

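CAGE libraries were made without amplification from total RNA of 6 Ba/F3 samples, per the labels' protocols. The authors deposited CPM, 1 value per peak, and each table sums to 1000000 over its listed peaks. The submitters' processing notes name TopHat2 2.0.14, edgeR 3.24.3 and the builds hg19 and mm9, with no roles. How peaks were defined is not stated. All values above 0 were whole multiples of the smallest (tolerance 0.01), and tags were recovered as those multiples. The step of double-mutant replicate 3 is so near 0.1 CPM that an automatic check could not tell rounded values from whole tags. Its tags therefore serve for depths, shares, intervals and TMM factors and enter no count test reported here. Peaks with at least 1 CPM in at least 3 libraries (19162) were fitted with limma 3.58.1 (trend, robust) in R 4.3.3 on log2(CPM + 1), group as the only term, with p-values adjusted over all of them. A count model had been planned only if counts were deposited. Of 100 simulated 2-fold changes among 19162 peaks this fit recovered 87, and of 100 4-fold changes 100, with 11 false calls. The simulated peaks all shared 1 spread beyond counting error, and the changed ones were not drawn from the lowest levels. Far fewer peaks changed there than passed in the data, so these figures are not the power of the fit on these libraries. Alternatives were a pseudocount of 0.5, TMM scaling, no filter, a replicate term, left-out libraries and other bounds of the main cluster. After the data were seen, edgeR 4.0.16 and DESeq2 1.42.0 were run on the tags of the 5 libraries other than double-mutant replicate 3. They replaced earlier count tests that had also used that library.

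The gene, its start sites and the lists were chosen with earlier results of these data known. Named peaks are all window peaks that passed the filter, the most tagged others of each class, and the 5 peaks most like the internal start and the main cluster. The nearest tested peak on each side of the window is named too. Further low peaks were picked after their values were seen. Lists of NF-κB pathway genes and of pro-B and myeloid markers were not analysed here, since coordinates were not converted between builds, so the labelled cell type was not checked. Correlations between the deviations of libraries with a shared number were -0.01, 0.02 and 0.19, and those of libraries with unlike numbers -0.18 to 0.15. The highest was thus that of the libraries numbered 3. These values do not settle whether the numbers pair libraries. No label states a pairing, so none was assumed in the main fit.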

Additional observations from a re-analysis of the deposited data

How the results depend on the processing

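The difference of the internal start kept its direction in the 9 alternatives run (-5.19 to -4.24 on the log2 scale) and stayed within the spread between replicates. That of the main cluster, 1.52, was 1.12 with a bound of 300 bp, which leaves out the 5′-most peak, and 1.29 to 1.65 in the other 11. With the single most active main peak in place of the cluster, the internal share was 93.8% in FLT3-ITD and 13.5% in the double mutant, since the denominator is smaller. With no filter 8 of the 24 window peaks with a tag passed, and 4 or 5 of 6 with a library left out. Over all peaks 4680 passed, 4907 with TMM scaling, 3076 to 5209 with a library left out (limma; lowest for FLT3-ITD replicate 2, highest for replicate 2 of the double mutant), and 4109 with a replicate block, which changed no call among the 6 Nfkb1 peaks. No count test on all 6 libraries is reported here. Without double-mutant replicate 3, 2734 passed with DESeq2 (1292 higher, 1442 lower) and 3600 with edgeR (1902 and 1698), against 3645 with limma (2248 and 1397), and 5 of the 6 Nfkb1 peaks passed in each. TMM scaling moved the median of all peaks from 0.054 to 0.0070. Of 45 refits of the other 5 tested Nfkb1 peaks, 42 stayed within the replicate spread, 2 moved and 1 turned sign, the downstream main peak without double-mutant replicate 2 (-0.077, and up to 0.48 with other libraries left out). Depth limits peaks of a few tags, and the causes of these shifts were not tested unless stated.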
